A study of Mus musculus with 47 samples.

Results

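The genes described here are 58 widely expressed genes of mouse chromosome 5, taken from a list of symbols with no measured value in the rule, among 24062 genes in the count table. They serve basic functions of many cell types: metabolism, membrane transport and signalling, transcription, DNA replication and repair, the actin cytoskeleton, and control of RNA and protein. The reference annotation places 1360 genes of the table on chromosome 5, and all 58 listed genes are among them.

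The study asked how the chromosome 5 of PWD/Ph, a strain derived from Mus musculus musculus, alters intestinal tumours of mice with the Apc Min mutation. Apc encodes a tumour suppressor of the Wnt pathway, and the Min allele induces intestinal adenomas. A consomic strain carries a single chromosome of a donor strain on the genome of a host strain, so that every gene of that chromosome, with its regulatory sequence, is of donor origin. When such genes differ in RNA level from the host strain, the difference can arise from the gene's own allele or from any other locus of the exchanged chromosome, and a comparison of total RNA cannot tell these apart.

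Tissue was taken from mice aged 15 to 19 weeks. The strains were C57BL/6 (B6) with 0 PWD copies of chromosome 5, the cross of C57BL/6 with the consomic strain (C5F1) with 1 copy, the cross of C57BL/6 and PWD (B6xPWD) with 1 copy of it and of every other autosome, the consomic strain (C5) with 2 copies on a C57BL/6 genome, and PWD/Ph with 2 copies on an entirely PWD genome. In B6, C5F1, B6xPWD and C5, the tissues were adenomas and uninvolved mucosa (called Min mucosa here) from Apc Min mice, and mucosa from wild-type mice. PWD was sampled as wild-type mucosa only. Each of these 13 groups had 3 libraries. Organoids, epithelial cultures grown from intestinal tissue, carried the Apc Min genotype in all 4 of their groups: C5 and B6, each with 5-aza-cytidine (AZA) and as untreated control, with 2 libraries a group. AZA is a cytidine analogue that traps DNA methyltransferases. Sex was not given. The labels do not say whether replicates came from separate animals or cultures, and p-values reflect library-to-library spread that may be technical.

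The values are read counts per gene, and levels are given in CPM, the count relative to the scaled total of its library. Gene counts ranged from 2726505 to 20070696 in a tissue library and from 4389898 to 8373764 in an organoid library. Between 16.4 and 72.7% of a tissue library and between 0.760 and 1.61% of an organoid library fell on Rn45s, the ribosomal RNA precursor, and 6 tissue libraries held fewer than 2000000 counts besides it. Summed levels of 5 epithelial markers were 2683 to 7275 CPM in tissue and 4126 to 5572 CPM in organoids. Summed levels of 7 fibroblast markers were 148 to 734 CPM in tissue and at most 7.4 CPM in organoids. In bulk samples such as these, fewer cells of a type and less RNA per cell cannot be told apart.

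Nearly all of the 58 genes were broadly expressed in these libraries. In tissue, 57 had counts in every library, 53 averaged 5 CPM or more, and their median level was 35.6 CPM against 12.6 CPM over all 13657 genes tested. In organoids, 53 had counts in every library, and the median was 61.1 CPM against 23.5 CPM over 13395 genes. The most abundant was the actin gene Actb, at 3780 CPM in tissue and 1278 CPM in organoids. The exception in tissue was Abcb4, a phospholipid transporter of the bile canaliculus, which averaged 0.239 CPM and was not testable. In organoids, Igfbp7, Sparcl1 and Fscn1 did not pass the filter on low counts. Igfbp7 and Fscn1 were at most 1.54 and 0.504 CPM there, and Sparcl1 averaged 0.0601 CPM. Thus 57 of the 58 genes were tested in tissue and 55 in organoids.

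Promoter sequence was available for 50 of the 58 genes in the RefSeq table for GRCm38.p6. Windows of 300 bases, from 250 bases before to 50 bases after the annotated start, held a median of 26 CpG dinucleotides in these genes and 7 over all 32851 windows of the table. Each listed gene entered with its first window only, while all windows include any further windows of a gene, so the sets are not alike. The GC box letters GGGCGG, searched on both strands, were present in 34 of 50 windows (68.0%) and in 35.7% of all windows. On both strands too, the CCAAT box (letters CCAAT) was present in 32.0% of these windows and in 37.4% of all. The TATA box (letters TATAAA) was present in 8.0% and in 13.6% of all, and the E-box (letters CACGTG) in 8.0% and in 7.15% of all. The 3 windows printed here belong to Hadha and Hadhb, which lie head to head 272 bases apart and share 228 bases of their windows, and to Lias, which had the smallest adjusted p of the 58 genes between C5 and B6 tissue. They are the RefSeq sequence of the C57BL/6 genome, 5′ to 3′ on the strand of the gene, and the PWD alleles were not analysed here. Capitals mark the GC box on either strand. The windows lie at chr5:30154931-30155230 on the minus strand for Hadha, at chr5:30155003-30155302 on the plus strand for Hadhb and at chr5:65391247-65391546 on the plus strand for Lias.
Hadha: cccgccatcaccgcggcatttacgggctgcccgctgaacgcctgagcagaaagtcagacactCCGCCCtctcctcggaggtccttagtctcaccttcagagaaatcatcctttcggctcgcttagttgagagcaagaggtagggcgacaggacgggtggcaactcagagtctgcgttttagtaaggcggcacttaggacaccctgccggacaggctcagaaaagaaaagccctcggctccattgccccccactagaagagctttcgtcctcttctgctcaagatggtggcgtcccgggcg
Hadhb: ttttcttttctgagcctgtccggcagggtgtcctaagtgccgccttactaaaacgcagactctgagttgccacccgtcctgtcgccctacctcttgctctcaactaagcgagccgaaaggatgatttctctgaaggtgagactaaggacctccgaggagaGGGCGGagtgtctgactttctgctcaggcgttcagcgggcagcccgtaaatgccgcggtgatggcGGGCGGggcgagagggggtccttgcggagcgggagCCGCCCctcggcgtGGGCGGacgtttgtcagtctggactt
Lias: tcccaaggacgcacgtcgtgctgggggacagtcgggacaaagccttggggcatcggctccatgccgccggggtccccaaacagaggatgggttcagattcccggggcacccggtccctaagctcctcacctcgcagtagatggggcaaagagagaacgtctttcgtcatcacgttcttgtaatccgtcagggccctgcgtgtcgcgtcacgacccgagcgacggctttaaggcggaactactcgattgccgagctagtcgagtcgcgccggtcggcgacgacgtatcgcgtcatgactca
The Hadha window held 1 GC box, the Hadhb window 4 and the Lias window 0, and the CpG counts were 20 in Hadha, 24 in Hadhb and 34 in Lias. None of the 3 windows contained the letters of the CCAAT box, the TATA box or the E-box.

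The comparison of C5 with B6 asks which of these genes differ in RNA level when both copies of chromosome 5 are PWD and the rest of the genome is not. Averaged over wild-type mucosa, Min mucosa and adenoma, 27 of the 57 genes tested differed at an adjusted p under 0.05 (edgeR quasi-likelihood F-test, Benjamini-Hochberg over all genes), 13 higher and 14 lower in C5. Of all genes tested, 18.6% were called, 10.3% higher and 8.35% lower, and of the 867 tested genes of chromosome 5, 33.0% were called. Among the 57 listed genes tested, the share was 47.4%. The median absolute log2 change was 0.36 in these genes, 0.31 over chromosome 5 and 0.23 over all genes. The 4 called genes that moved furthest were Cd38, a cell-surface enzyme, and Lias, which were lower in C5, and Hsd17b11 and Hadhb, enzymes of lipid metabolism, which were higher. All these libraries were aligned to a C57BL/6 genome, and an effect of sequence differences on the alignment of PWD reads was not tested. The fit counts the libraries of a strain as independent. Adenoma and Min mucosa libraries of the same number were correlated. The SE and adjusted p of strain means over the tissues, here and below, may therefore be too small.

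Among the 10 mitochondrial and metabolic enzymes, 4 were higher in C5 (Hadha, Hadhb, Hsd17b11 and Letm1), 2 were lower (Lias and Coq2), and Mdh2, Nudt9, Por and Ugdh were not called. Lias, the synthase of the lipoate cofactor of mitochondrial dehydrogenases, had lowest, median and highest levels of 5.60, 7.79 and 9.33 CPM in 9 C5 libraries, against 10.1, 17.6 and 34 CPM in 9 B6 libraries. Every C5 library lay below every B6 library. Its log2 change was -1.2 ± 0.14 (SE), with an adjusted p of 3.57e-07. Coq2, a prenyltransferase of coenzyme Q synthesis, had 5.70, 6.53 and 8.40 CPM in C5 against 7.66, 11.8 and 15.8 CPM in B6. Its ranges overlapped over all tissues together, and within each of the 3 tissues every C5 library was below every B6 library. The change was -0.73 ± 0.13 (adjusted p = 0.000157).

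Hsd17b11, a short-chain dehydrogenase of lipid droplets and the endoplasmic reticulum, had 189, 210 and 316 CPM in C5 libraries and 54.3, 141 and 246 CPM in B6 libraries, a change of 0.96 ± 0.15 (adjusted p = 4.08e-05). The lowest values were those of B6 adenomas, and the ranges overlapped. Hadhb, the beta subunit of the mitochondrial trifunctional protein that oxidises long-chain fatty acids, had 10.1, 12.4 and 17.6 CPM in C5 and 2.77, 7.34 and 12.9 CPM in B6, a change of 0.88 ± 0.14 (adjusted p = 4.48e-05). Hadha, the alpha subunit, is the head-to-head neighbour whose promoter window is printed with it. It had 135, 161 and 208 CPM in C5 and 87.7, 144 and 199 CPM in B6, with wide overlap, and its change of 0.27 ± 0.10 (adjusted p = 0.0447) lost its call under 21 of 27 alternative settings. The level per kilobase of exon was 19.1 CPM for Hadha and 1.86 CPM for Hadhb in tissue, so the subunit with the larger log2 change was the one with the lower level. Letm1, a cation and proton exchanger of the inner mitochondrial membrane, had 78.7, 97.6 and 122 CPM in C5 and 46.7, 59.2 and 90.1 CPM in B6. In each tissue all its C5 libraries were above all its B6 libraries, and the change was 0.67 ± 0.10 (adjusted p = 1.8e-05).

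The levels of these enzymes can be followed across copy number in the libraries with 1 PWD copy. Lias had a median of 17.6 CPM in B6, 11.6 CPM in C5F1 and 7.79 CPM in C5, Letm1 59.2, 87.9 and 97.6 CPM, and Hadhb 7.34, 11 and 12.4 CPM in that order. Hsd17b11 had 141 CPM in B6, 181 CPM in C5F1 and 210 CPM in C5, and Coq2 had 11.8, 9.86 and 6.53 CPM. For each of these 5 genes the median with 1 copy lay between the medians with 0 and 2 copies. They are the called enzymes other than Hadha, picked for a difference between the same B6 and C5 libraries, which favours such an order. Other genes called in C5 did not show it: the C5F1 medians of Orai1, Igfbp7 and Hmgb1 lay outside those of B6 and C5. How many called genes had the order was not counted. In B6xPWD, with 1 copy as well, the medians were 14.3 CPM for Lias, 12 CPM for Coq2, 98.4 CPM for Letm1, 14.5 CPM for Hadhb and 260 CPM for Hsd17b11, so 4 of the 5, all but Lias, did not lie between B6 and C5 there.

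**Figure D1:**
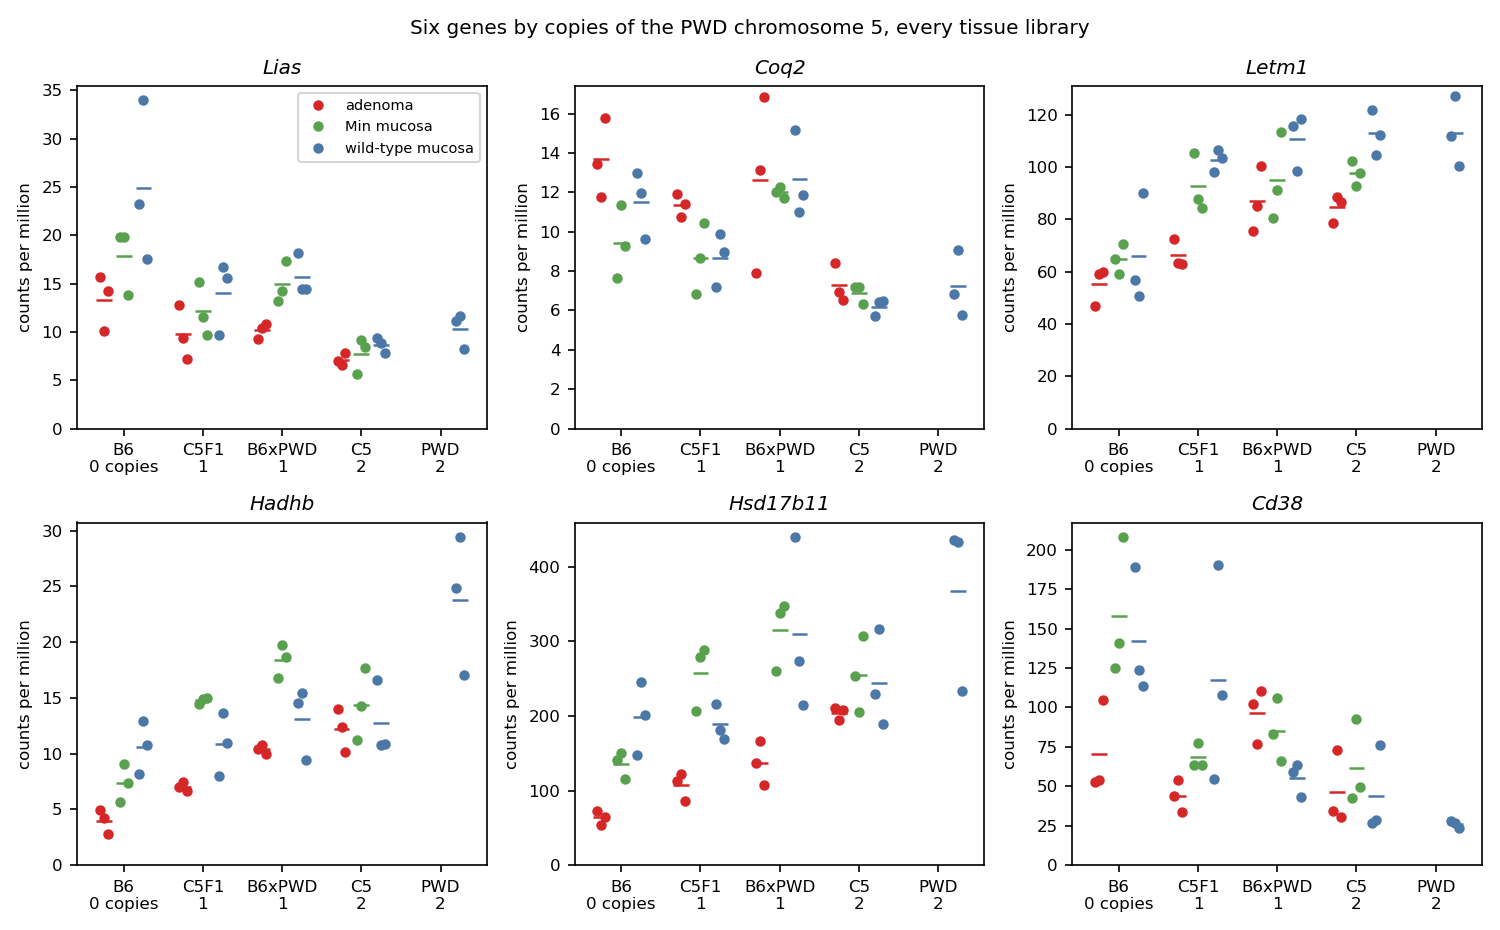
Each point is a tissue library and each short line the mean of 3, in CPM, with backgrounds ordered by PWD copies of chromosome 5 and adenoma, Min mucosa and wild-type mucosa side by side. Lias and Coq2 were lowest in C5 and PWD, the mean of Letm1 was above that of B6 in every background with a PWD copy, and Hadhb and Hsd17b11 were lowest in B6 adenomas.

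Among the membrane, secreted and signalling proteins, 14 were tested, 5 were lower in C5 and 0 were higher. Cd38, an ectoenzyme that consumes NAD and forms cyclic ADP-ribose, had lowest, median and highest levels of 26.4, 42.4 and 92.6 CPM in C5 and of 53.0, 124 and 208 CPM in B6. Most C5 libraries lay below the lowest B6 library, and the change was -1.21 ± 0.23 (adjusted p = 0.00049). Bst1, a paralogue of Cd38 that lies 25340 bases from it, had 1.32, 6.00 and 17.1 CPM in C5 and 3.84, 10.2 and 134 CPM in B6. Its fitted change of -1.25 ± 0.53 was as large as that of Cd38 and did not pass the test (adjusted p = 0.086). Orai1, the pore subunit of the store-operated calcium channel, had 11, 18.7 and 23.5 CPM in C5 and 21.0, 27.7 and 36.7 CPM in B6, a change of -0.60 ± 0.14 (adjusted p = 0.00406).

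The other called genes of this group were secreted or intracellular regulators. Igfbp7, a secreted binding protein of insulin-like growth factors, had 19.7, 44.1 and 51.2 CPM in C5 and 19.8, 57 and 141 CPM in B6 (change -0.65 ± 0.22, adjusted p = 0.0329). Slit2, a ligand of Robo receptors, had 1.6, 4.39 and 6.32 CPM in C5 and 3.40, 7.66 and 13.3 CPM in B6 (change -0.65 ± 0.23, adjusted p = 0.0344). Both ranges overlapped widely and both calls were lost under 8 of 27 alternatives. Smurf1, a ubiquitin ligase of BMP and TGF-beta signalling, was lower by a smaller amount (-0.42 ± 0.11, adjusted p = 0.0068). Abcb1a, Abcb4, Atp8a1, Fgfr3, Hpse, Rgs12, Sparcl1, Tgfbr3 and Wfs1 were not called or, for Abcb4, not testable. Enterocyte markers moved with the same comparison: 5 of 10 were higher in C5 and 0 were lower, with summed levels of 6011 to 21109 CPM in C5 and 1600 to 21168 CPM in B6. In wild-type mucosa 7 goblet markers summed to 10235 to 12559 CPM in C5 and 4419 to 8397 CPM in B6. The sums were 7443 to 9507 CPM and 3529 to 6892 CPM in adenoma, and 7901 to 11052 CPM and 7782 to 8355 CPM in Min mucosa. The part of these cells in the calls was not tested. Of 3 tested markers of proximal intestine, 2 were higher in C5 (median log2 change 2.29), among them Gata4. It had 2.20 to 73.9 CPM in C5 Min mucosa and 0 to 0.874 CPM in B6 Min mucosa. The strains overlapped in the other tissues. Gata4 had 0.440 to 71.0 CPM in C5 and 1.21 to 78.2 CPM in B6 wild-type mucosa, and 12.4 to 55.4 CPM in C5 and 1.07 to 25.4 CPM in B6 adenoma. With the Gata4 level as a covariate the calls of Igfbp7 and Slit2 were lost, and the part of tissue position in the other results was not tested beyond that setting.

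Among 12 genes of transcription and chromatin, 4 were higher in C5 (Baz1b, Clock, Gtf2i and Trrap) and 2 were lower (Hmgb1 and Polr2b). Hmgb1, an abundant chromatin protein, was the furthest moved, with 1.68, 2.93 and 4.31 CPM in C5 and 4.02, 5.67 and 7.04 CPM in B6. Within each tissue all C5 libraries were below all B6 libraries, and the change was -0.79 ± 0.21 (adjusted p = 0.00605). Hmgb1 has many processed pseudogenes, so its count is uncertain where reads could be shared with them. Baz1b, a subunit of chromatin remodelling complexes, had 66.2, 78.2 and 84.8 CPM in C5 and 45.7, 57.1 and 65.3 CPM in B6. It was the only listed gene besides Lias whose 9 C5 and 9 B6 libraries did not overlap. How many of all genes did so was not counted. The change of Baz1b was 0.43 ± 0.10 (adjusted p = 0.00333). Trrap, a scaffold of histone acetyltransferase complexes, changed by 0.52 ± 0.10 (adjusted p = 0.00073), Clock, a circadian transcription factor, by 0.38 (adjusted p = 0.0071), and Polr2b, a core subunit of RNA polymerase II, by -0.36 ± 0.08 (adjusted p = 0.00238). Gtf2i was called at an adjusted p of 0.0494 and lost the call under 19 of 27 alternatives. Aff1, Gfi1, Kdm2b, Klf3, Rbpj and Rest were not called.

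Of 9 genes of DNA replication, repair and the cell cycle, 3 were lower in C5 and 0 were higher. Anapc5, a subunit of the anaphase-promoting complex, had 35.5, 44.1 and 56.2 CPM in C5 and 48.7, 65.6 and 79.6 CPM in B6, a change of -0.53 ± 0.09 (adjusted p = 0.000174). Its C5 libraries were below its B6 libraries in all 3 tissues taken apart. Ung, the uracil-DNA glycosylase of base excision repair, changed by -0.48 (adjusted p = 0.0238) and Pms2, a mismatch repair protein, by -0.43 (adjusted p = 0.0243). Brca2, Cdk6, Evi5, Pds5b, Pole and Rfc1 were not called.

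The cytoskeletal genes held a pair of paralogues that moved in opposite directions. Arpc1a and Arpc1b encode alternative subunits of the Arp2/3 complex, which nucleates branched actin filaments, and lie 5499 bases apart. Arpc1a had 43.1, 48.7 and 55.8 CPM in C5 and 45.2, 58.5 and 97.8 CPM in B6, a change of -0.41 ± 0.10 (adjusted p = 0.00542). Arpc1b had 111, 140 and 176 CPM in C5 and 89.4, 102 and 145 CPM in B6, a change of 0.36 ± 0.13 that was called at an adjusted p of 0.0489 and lost the call under 20 of 27 alternatives. Actb, Fscn1, Limk1 and Rac1 were not called. Of 6 genes for RNA, translation and protein control, 4 were higher in C5: Sbds, a ribosome maturation factor (0.42, adjusted p = 0.0065), Eif2ak1, the haem-regulated kinase of translation initiation (0.39, adjusted p = 0.00378), Htt, which encodes huntingtin (0.35, adjusted p = 0.017), and the stress granule protein G3bp2 (0.26, adjusted p = 0.0451). The deubiquitinase Usp46 had 5.55, 8.67 and 13.8 CPM in C5 and 8.56, 12.9 and 23.6 CPM in B6, a change of -0.68 ± 0.14 (adjusted p = 0.0013). Ywhag was not called.

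**Figure D2:**
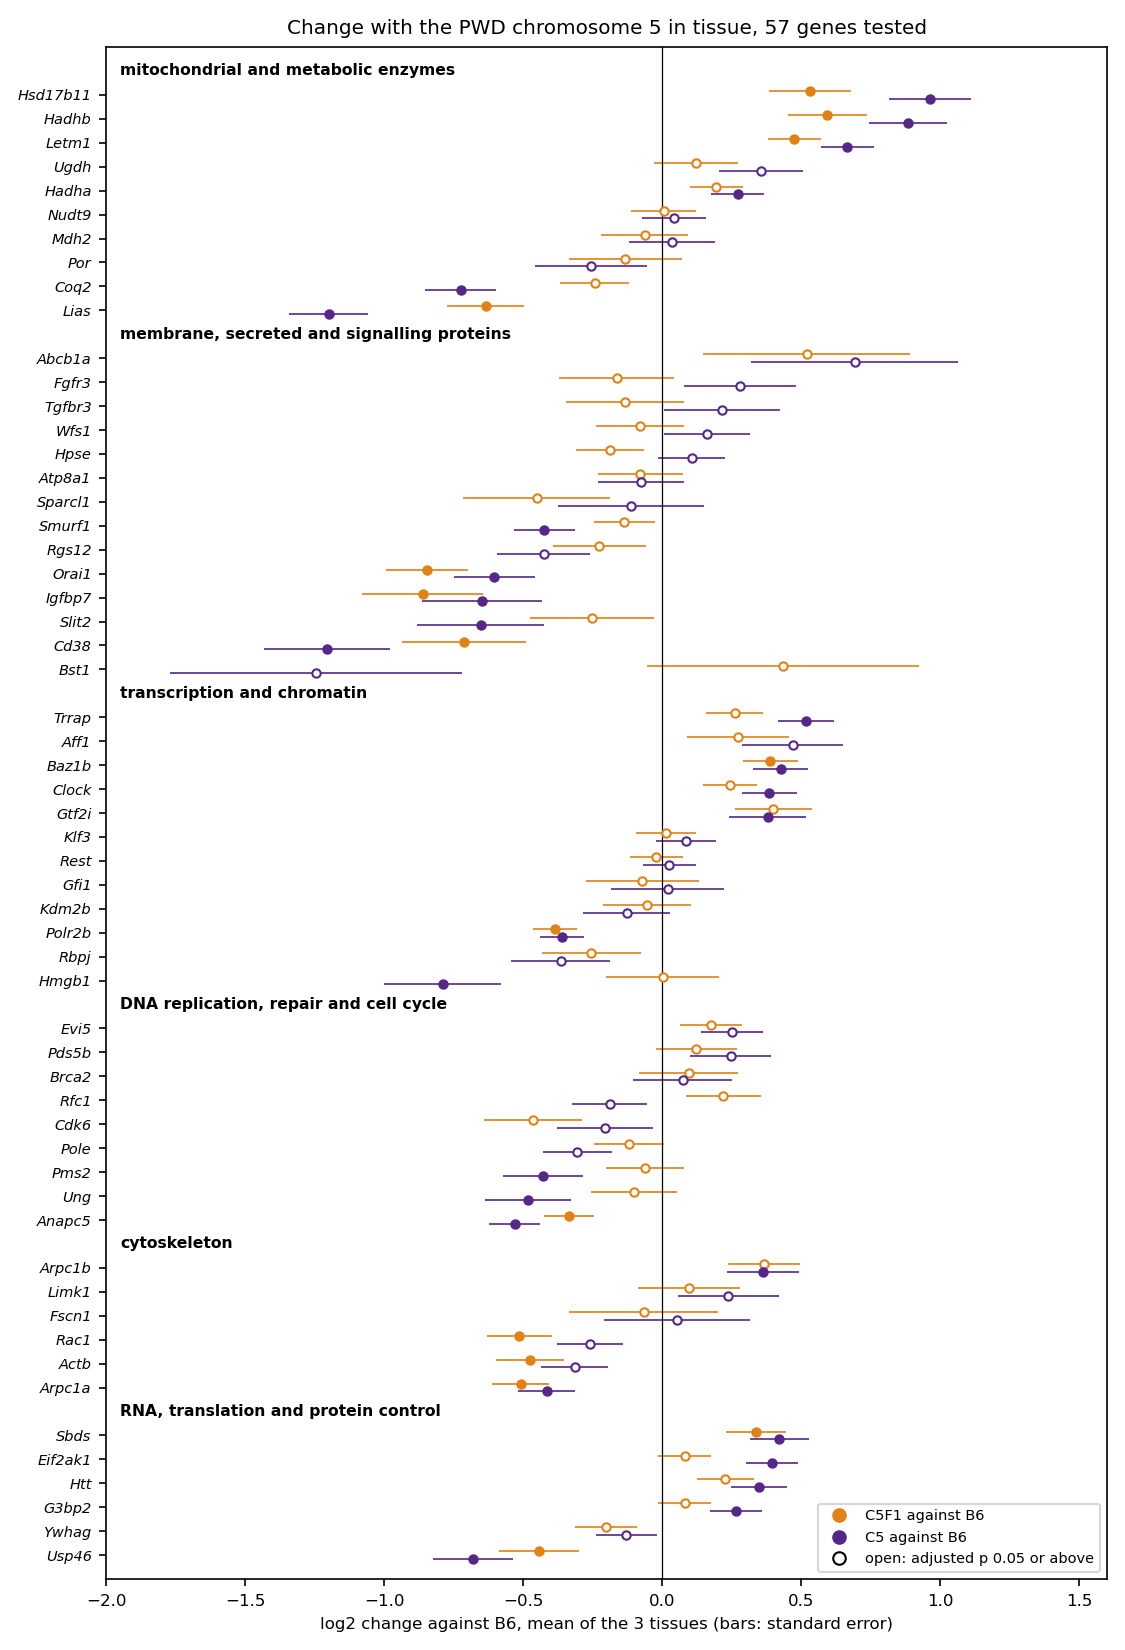
Each row is a gene tested in tissue, grouped by role, with the log2 change against B6 and its standard error for C5F1 and for C5, filled where the adjusted p was under 0.05. The longest fitted changes in C5 are those of Lias, Cd38 and Bst1, the last not called, to lower levels and of Hsd17b11 and Hadhb to higher levels.

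Of 17 pairs of neighbours on the list within 50000 bases of each other, 9 had changes of opposite sign in C5 against B6 and 8 of the same sign. Both genes were called in 5 pairs, 3 with opposite signs (Arpc1a and Arpc1b, Eif2ak1 and Pms2, Trrap and Smurf1) and 2 with the same sign (Hadha and Hadhb, Polr2b and Igfbp7). Lias and Ugdh lie 2783 bases apart with log2 changes of -1.2 and 0.35 in C5 against B6. Eif2ak1 and Pms2 lie 7183 bases apart with log2 changes of 0.39 and -0.43. Trrap and Smurf1 lie 16716 bases apart with log2 changes of 0.52 and -0.42. Coq2 and Hpse lie 5195 bases apart with log2 changes of -0.73 and 0.11. Polr2b and Igfbp7 overlap by 89 bases at their ends with log2 changes of -0.36 and -0.65, and those of Hadha and Hadhb were 0.27 and 0.88. The log2 changes of Bst1 and Cd38 were -1.25 and -1.21, those of Fgfr3 and Letm1 0.28 and 0.67, and those of Kdm2b and Orai1 -0.13 and -0.60. Ugdh, Hpse, Bst1, Fgfr3 and Kdm2b, which were not called, are given as values only. Of the 58 genes, 15 overlap a protein-coding gene and 36 overlap some gene on the other strand, and whether the counting used strand was not given in the sources used here, so counts of such genes may include reads of the partner.

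With 1 PWD copy on the B6 genome, 15 of the 57 genes were called in C5F1 against B6, 5 higher and 10 lower, where 11.5% of all genes were called, 5.91% higher and 5.62% lower. This comparison shares its B6 libraries with that of C5, so the values are given side by side. Orai1 had 10.6, 14 and 24.3 CPM in 9 C5F1 libraries, and its change was -0.85 ± 0.15 in C5F1 (adjusted p = 0.000495) and -0.60 in C5. Lias changed by -0.63 ± 0.14 in C5F1 (adjusted p = 0.0033), against -1.2 in C5. Igfbp7 had 17.3, 35.7 and 54.7 CPM in C5F1, a change of -0.86 ± 0.22 (adjusted p = 0.0104). Hadhb changed by 0.59 ± 0.14 (adjusted p = 0.00628) and Cd38 by -0.71 ± 0.22 (adjusted p = 0.0352), and the call of Cd38 was lost under 11 of 27 alternatives. Hmgb1, lower in C5, had 3.04, 5.91 and 7.97 CPM in C5F1 and a fitted change of 0.00 ± 0.20.

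Against the midpoint of C5 and B6, 0 of the 57 genes deviated in C5F1 by edgeR, where 0.227% of all genes were called. At an unadjusted p under 0.05 there were 12 of the 57 and 1872 of all 13657 genes. DESeq2 called 4 of the 57: Actb, Arpc1a, Orai1 and Rac1. The smallest edgeR adjusted p was that of Orai1, which deviated by -0.54 on the log2 scale (adjusted p = 0.0638). Without B6 wild-type library 3 the count was 3, without B6 Min library 3 it was 2, and without C5F1 wild-type library 2 or C5 adenoma library 1 it was 1. A miss of the threshold does not show that the level with 1 copy equals the midpoint.

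Within single tissues, C5 against B6 gave 7 calls in wild-type mucosa, where 1.47% of all genes were called, 3 in Min mucosa, where 1.1% were called, and 17 in adenoma, where 17.8% were called. In wild-type mucosa the 5 largest were Cd38 (-1.66 ± 0.40, adjusted p = 0.0308), Lias (-1.54 ± 0.25, adjusted p = 0.000436), Pms2 (-1.01 ± 0.27, adjusted p = 0.0347), Coq2 (-0.87 ± 0.23, adjusted p = 0.0401) and Letm1 (0.79 ± 0.17, adjusted p = 0.0136). The 3 calls in Min mucosa were Lias (-1.16 ± 0.24, adjusted p = 0.00813), Orai1 (-1.02 ± 0.25, adjusted p = 0.0344) and Hadhb (0.95 ± 0.24, adjusted p = 0.035). The wild-type count was 1 without B6 library 2, 2 without B6 library 1 and 3 without any single C5 library. The Min mucosa count was 0 without B6 library 1, 7 without B6 library 3 and 1 without C5 library 1 or 3.

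In adenoma, Hsd17b11 had 210, 195 and 208 CPM in the C5 libraries and 73.1, 54.3 and 64.8 CPM in the B6 libraries, a change of 1.67 (adjusted p = 5.5e-05). Rgs12, which accelerates the GTPase of G protein alpha subunits, had 11.1, 8.42 and 10.3 CPM in C5 adenomas and 27.3, 36.5 and 28.6 CPM in B6 adenomas, a change of -1.59 (adjusted p = 8.09e-05). Hadhb had 14, 12.4 and 10.1 CPM in C5 adenomas and 4.96, 4.18 and 2.77 CPM in B6 adenomas (1.49, adjusted p = 7.17e-05). For these 3 genes the C5 and B6 adenomas did not overlap. The same held for other listed genes, among them Por, Ugdh and Abcb1a, which were not called in adenoma. The share of all genes without overlap was not counted. Igfbp7 had 24.5, 51.2 and 44.6 CPM in C5 adenomas and 79.3, 84.7 and 141 CPM in B6 adenomas (-1.34, adjusted p = 0.0124), and Lias had 7.0, 6.60 and 7.79 CPM against 15.7, 10.1 and 14.3 CPM (-0.90, adjusted p = 0.00852).

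Cell markers stood apart between the same adenomas. All 6 markers of Wnt-high adenoma were called lower in C5, with sums of 116 to 230 CPM in C5 adenomas and 561 to 783 CPM in B6 adenomas. Among them the Wnt inhibitor Notum had 9.48 to 33.1 CPM in C5 and 78 to 153 CPM in B6. Of 10 enterocyte markers 6 were called higher in C5, with sums of 6011 to 9797 CPM in C5 and 1600 to 4405 CPM in B6. Epithelial markers summed to 4569 to 5050 CPM in C5 and 2683 to 2862 CPM in B6, and fibroblast markers to 332 to 517 CPM in C5 and 547 to 734 CPM in B6. Their part in the changes of Hsd17b11, Rgs12, Hadhb, Igfbp7 and Lias in adenoma was not tested.

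PWD wild-type mucosa differs from B6 at every chromosome, with 2 PWD copies of chromosome 5 as in C5. Against B6, 18 of the 57 genes were called, 11 higher and 7 lower, where 18.7% of all genes were called, 9.96% higher and 8.79% lower. Cd38 had 27.6, 26.9 and 23.4 CPM in PWD and 189, 124 and 113 CPM in B6, a change of -2.44 ± 0.41 (adjusted p = 6.31e-05). Lias had 11.2, 11.7 and 8.20 CPM in PWD and 23.2, 34.0 and 17.6 CPM in B6 (-1.26, adjusted p = 0.000271). Both were low in all PWD libraries without overlap. Letm1 had 112, 127 and 101 CPM in PWD and 56.8, 50.8 and 90.1 CPM in B6 (0.80, adjusted p = 0.000872), and Hadhb had 24.9, 29.4 and 17.0 CPM against 8.14, 12.9 and 10.8 CPM (1.16, adjusted p = 0.000636). Those groups did not overlap either.

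Other genes called in PWD were not called in C5 against B6, and of them Ugdh and Limk1 differed between PWD and C5 in a direct test while Por, Fgfr3 and Abcb1a did not pass it. Ugdh, which makes UDP-glucuronate for glucuronidation, had 575, 710 and 255 CPM in PWD and 132, 134 and 129 CPM in B6, a change of 1.97 ± 0.27 (adjusted p = 2.72e-06). Por, the electron donor of microsomal cytochromes P450, had 89.3, 132 and 78 CPM in PWD and 19.4, 24.1 and 50.4 CPM in B6 (1.73 ± 0.36, adjusted p = 0.000788). Fgfr3, a fibroblast growth factor receptor, had 33.5, 26.9 and 27.6 CPM in PWD and 12.2, 9.91 and 12.5 CPM in B6 (1.34 ± 0.35, adjusted p = 0.00616). All 3 were without overlap. The actin regulator Limk1 had 6.34, 6.77 and 3.95 CPM in PWD and 2.56, 1.92 and 2.83 CPM in B6 (1.19 ± 0.34, adjusted p = 0.00649), and the drug efflux pump Abcb1a had 394, 395 and 910 CPM against 253, 94.5 and 105 CPM (1.90 ± 0.67, adjusted p = 0.0424). Abcb1a has a close paralogue, and its call was lost under 5 of 15 alternatives.

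The remaining named genes had also been called in C5 against B6. Hsd17b11 had 436, 434 and 233 CPM in PWD and 148, 246 and 202 CPM in B6 (0.89, adjusted p = 0.013), with overlap. Orai1 had 14.2, 15.4 and 16.7 CPM in PWD and 35.3, 28.3 and 21.0 CPM in B6 (-0.88, adjusted p = 0.0135). Hmgb1 had 3.80, 1.87 and 0.304 CPM in PWD and 4.22, 5.27 and 5.67 CPM in B6 (-1.17, adjusted p = 0.0258). Neither Orai1 nor Hmgb1 showed overlap. The wild-type B6 libraries are shared by the comparisons of PWD and of C5. The count of 18 fell to 10 without PWD library 2 and to 8 when only the PWD and B6 wild-type libraries were fitted, and 6 of the 18 calls stood under every alternative. Of 10 enterocyte markers 3 were called higher in PWD, with sums of 25432 to 51371 CPM in PWD and 6810 to 21168 CPM in B6, and of 6 Paneth cell markers 4 were called lower. Regional markers set the PWD libraries apart from each other. Fabp6, a bile acid binding protein of the distal ileum, had 1.01, 0.144 and 4739 CPM in PWD libraries 1, 2 and 3, against 1600, 281 and 36.8 CPM in B6. Markers of proximal intestine summed to 665 to 4285 CPM in PWD and 2.4 to 1395 CPM in B6. PWD libraries 1 and 2, with Fabp6 near 0, were also those with the higher Ugdh values. The part of intestinal position and cell makeup in these changes was not tested.

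Strains with equal copy number of the PWD chromosome 5 differed in some of these genes too. In PWD against C5 wild-type mucosa 9 genes were called, all higher in PWD, where 16.1% of all genes were called, 8.46% higher and 7.65% lower. Ugdh had 575, 710 and 255 CPM in PWD and 125, 195 and 120 CPM in C5, a change of 1.80 ± 0.27 (adjusted p = 1.32e-05). Bst1 had a larger change of 3.99 ± 0.94 (adjusted p = 0.00288), followed by Hadhb (0.95 ± 0.24, adjusted p = 0.00496), Mdh2 (0.88 ± 0.27, adjusted p = 0.0246) and Limk1 (0.86 ± 0.32, adjusted p = 0.047). The count was 2 without PWD library 2 and 4 without PWD library 1 or C5 library 3. Markers moved with this comparison: 4 of 10 enterocyte markers were called higher, with sums of 25432 to 51371 CPM in PWD and 9530 to 21109 CPM in C5, and proximal markers summed to 665 to 4285 CPM in PWD and 1.8 to 721 CPM in C5.

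In B6xPWD against C5F1, over 3 tissues, 13 genes were called, 10 higher and 3 lower, where 24.4% of all genes were called, 13.3% higher and 11.1% lower. Ugdh had 121, 233 and 284 CPM in 9 B6xPWD libraries and 67.8, 114 and 165 CPM in 9 C5F1 libraries (0.87 ± 0.15, adjusted p = 9.44e-05). The next largest were Fgfr3 (0.81 ± 0.21, adjusted p = 0.00354), Slit2 (-0.60 ± 0.24, adjusted p = 0.0472), Rgs12 (-0.57 ± 0.18, adjusted p = 0.0133) and Orai1 (0.53 ± 0.15, adjusted p = 0.00825). That count was 8 without B6xPWD adenoma library 2 or C5F1 adenoma library 3. Of 4 distal ileum markers 2 were called higher in B6xPWD, with sums in Min mucosa of 4979 to 5828 CPM in B6xPWD and 1105 to 1374 CPM in C5F1. Enterocyte markers gave 4 higher calls of 10 and fibroblast markers 4 lower calls of 7. The part of these markers in the differences between strains of equal copy number was not tested.

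In B6xPWD against B6, 23 genes were called, 13 higher and 10 lower, where 34.8% of all genes were called, 18.7% higher and 16.1% lower. Bst1 had 17.4, 39.3 and 195 CPM in B6xPWD and 3.84, 10.2 and 134 CPM in B6 (1.69 ± 0.49, adjusted p = 0.00638). Ugdh had 52.9, 114 and 134 CPM in B6, and its change was 0.99 ± 0.15 (adjusted p = 7.42e-06), with those of Hsd17b11 at 0.98 ± 0.15 (adjusted p = 5.61e-06) and Abcb1a at 1.22 ± 0.38 (adjusted p = 0.0121). Igfbp7 had 9.05, 25.7 and 59.1 CPM in B6xPWD (-1.23 ± 0.22, adjusted p = 6.58e-05). Fibroblast markers moved with it: 4 of 7 were lower in B6xPWD, with summed levels of 148 to 403 CPM there and 226 to 734 CPM in B6. Their part in the result was not tested.

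Adenomas were compared with Min mucosa as the mean of 4 backgrounds to ask which of these genes differ in the tumour. Of the 57 genes, 30 were called, 14 higher and 16 lower, where 45.2% of all genes were called, 23.7% higher and 21.5% lower. The share called of the 57 tested was 52.6%. Metabolic enzymes gave 6 lower calls (Hadha, Hadhb, Hsd17b11, Letm1, Lias and Ugdh) and 1 higher call (Por). DNA replication, repair and cell cycle gave 2 higher calls (Pole and Ung) and 0 lower, and the other role groups gave calls in both directions or, for the cytoskeleton, 1 higher call.

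Rgs12 showed the largest rise. It had lowest, median and highest levels of 6.34, 14.3 and 36.5 CPM in 12 adenoma libraries and of 3.04, 4.68 and 7.16 CPM in 12 Min mucosa libraries, a change of 1.61 ± 0.14 (adjusted p = 3.35e-11). Within each background no adenoma library overlapped a Min mucosa library. Fscn1, an actin-bundling protein, had 3.86, 12.8 and 25.6 CPM in adenoma and 2.28, 5.02 and 6.40 CPM in Min mucosa (1.47 ± 0.22, adjusted p = 1.36e-06). Usp46 had 8.39, 16.3 and 23.6 CPM in adenoma and 5.55, 8.14 and 11.2 CPM in Min mucosa (0.84 ± 0.12, adjusted p = 8.18e-07). Most adenoma libraries of both genes were above the highest Min mucosa library.

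Smaller rises had narrower ranges. Ywhag, an adaptor protein that binds phosphorylated partners, had 60.1, 76.2 and 103 CPM in adenoma and 35.8, 43.0 and 74.0 CPM in Min mucosa (0.81 ± 0.10, adjusted p = 2.34e-08). Pole, the catalytic subunit of DNA polymerase epsilon, had 14.1, 20.1 and 28.3 CPM in adenoma and 8.88, 12.8 and 15.7 CPM in Min mucosa (0.67 ± 0.11, adjusted p = 4.45e-06). Smurf1 had 19.4, 30.9 and 41.0 CPM in adenoma and 14.4, 18.7 and 23.6 CPM in Min mucosa (0.60 ± 0.09, adjusted p = 2.59e-06). In all 3 genes the medians lay apart while the ranges overlapped.

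Among the genes that fell, Hsd17b11 had 54.3, 117 and 210 CPM in adenoma and 115, 257 and 347 CPM in Min mucosa (-0.97 ± 0.13, adjusted p = 2.06e-07). Hadhb had 2.77, 8.72 and 14 CPM in adenoma and 5.65, 14.6 and 19.8 CPM in Min mucosa (-0.71 ± 0.12, adjusted p = 7.45e-06), and Ugdh had 52.9, 98.5 and 160 CPM against 87.5, 137 and 273 CPM (-0.62 ± 0.13, adjusted p = 0.000239). Over all backgrounds these ranges overlapped. Abcb1a had 54.2, 157 and 453 CPM in adenoma and 139, 337 and 969 CPM in Min mucosa (-1.14 ± 0.33, adjusted p = 0.00453). Bst1 had 1.32, 10.9 and 36.9 CPM in adenoma and 1.34, 28.1 and 120 CPM in Min mucosa (-1.34 ± 0.44, adjusted p = 0.0108), a call that was lost without C5 Min library 3. Sparcl1, a matricellular protein, had 9.07, 44.3 and 61.1 CPM in adenoma and 26.0, 108 and 192 CPM in Min mucosa (-1.31 ± 0.23, adjusted p = 2.38e-05).

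Markers of other cells moved with the tumour comparison. Of 10 enterocyte markers 7 were lower in adenoma, with summed levels of 1600 to 9797 CPM in adenoma and 7332 to 21872 CPM in Min mucosa. Of 8 smooth muscle markers all 8 were lower, with sums of 137 to 1475 CPM in adenoma and 260 to 3027 CPM in Min mucosa. Of 7 fibroblast markers 3 were higher and 1 was lower. Their part in the changes of the metabolic genes, Sparcl1 and Fscn1 was not tested. In organoids, where fibroblast markers summed to 7.4 CPM or less, Sparcl1, Fscn1 and Igfbp7 were at or near 0.

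By background, 17 genes were called in B6, where 26.7% of all genes were called, 14 in C5F1 (20.5%), 11 in B6xPWD (16.4%) and 0 in C5 (2.77%). The B6 count was 10 without adenoma library 2, the C5F1 count 7 without adenoma library 3 and 9 without Min library 2 or 3, and the B6xPWD count 5 without adenoma library 3 and 7 without Min library 3. For C5 edgeR gave 9 of the 57 genes and 1666 of all 13657 at an unadjusted p under 0.05. DESeq2 called 0 of the 57 in C5. Rgs12 had 27.3, 36.5 and 28.6 CPM in B6 adenomas and 4.90, 5.61 and 7.16 CPM in B6 Min mucosa (2.33 ± 0.27, adjusted p = 1.01e-07). It had 16.3, 22.5 and 21.6 CPM in C5F1 adenomas and 3.80, 4.05 and 6.03 CPM in C5F1 Min mucosa (2.01 ± 0.29, adjusted p = 4.77e-06). In C5 it had 11.1, 8.42 and 10.3 CPM in adenomas and 6.00, 5.37 and 4.29 CPM in Min mucosa, and its change of 0.90 did not pass (adjusted p = 0.0648). In B6xPWD it had 6.34, 10.04 and 12.4 CPM in adenomas and 4.05, 4.45 and 3.04 CPM in Min mucosa (1.22 ± 0.30, adjusted p = 0.00304). Adenoma levels were highest in B6, and Min mucosa levels lay between 3.04 and 7.16 CPM in all 4 backgrounds. The summed Wnt-high adenoma markers had medians of 615 CPM in B6, 382 CPM in C5F1, 206 CPM in B6xPWD and 152 CPM in C5 adenomas. Like Rgs12 they were highest in B6 and next in C5F1. The median of Rgs12 did not fall further from B6xPWD to C5, at 10.04 and 10.3 CPM. The part of these markers in the levels of Rgs12 was not tested.

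Other called changes by background were those of Abcb1a, Bst1, Sparcl1, Fscn1 and Hsd17b11. Abcb1a had 144, 64.2 and 54.2 CPM in B6 adenomas and 969, 578 and 267 CPM in B6 Min mucosa (-2.78 ± 0.69, adjusted p = 0.00282), and 401, 203 and 171 CPM in C5 adenomas and 346, 318 and 139 CPM in C5 Min mucosa, where the groups overlapped. Bst1 had 13.9, 15.4 and 9.35 CPM in C5F1 adenomas and 52.4, 68.2 and 81.5 CPM in C5F1 Min mucosa (-2.37 ± 0.85, adjusted p = 0.0429), without overlap, and the call was lost under 6 of 15 alternatives. Sparcl1 changed by -1.47 ± 0.46 in B6 (adjusted p = 0.0173) and by -1.38 ± 0.47 in C5F1 (adjusted p = 0.032). Fscn1 rose by 2.06 ± 0.44 in B6 (adjusted p = 0.000469), by 1.38 ± 0.46 in C5F1 (adjusted p = 0.0239) and by 1.70 ± 0.46 in B6xPWD (adjusted p = 0.00765). Hsd17b11 fell by 1.07 ± 0.26 in B6 (adjusted p = 0.0021), by 1.28 ± 0.26 in C5F1 (adjusted p = 0.000484) and by 1.2 ± 0.26 in B6xPWD (adjusted p = 0.00133).

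The difference of the adenoma effect between C5 and B6 was tested directly, and 0 of the 57 genes passed by edgeR, where 0.11% of all genes were called. There were 6 of the 57 and 1277 of all 13657 genes at an unadjusted p under 0.05, and DESeq2 called 0 of the 57. For Rgs12 the effect in C5 minus that in B6 was -1.43 on the log2 scale (adjusted p = 0.125). Adenoma and Min mucosa libraries of the same number deviated from their group means together in all 12 cases, and with the number as a block the count in C5 was 3 (Gfi1 -1.12, adjusted p = 0.0122, Rgs12 0.89, adjusted p = 0.0311, and Sparcl1 -1.35, adjusted p = 6.78e-05). With the block the difference between C5 and B6 was called for Abcb1a (2.69, adjusted p = 0.00144) and Rgs12 (-1.45, adjusted p = 0.0225), the count in C5F1 was 22 and that in B6xPWD was 18.

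**Figure D3:**
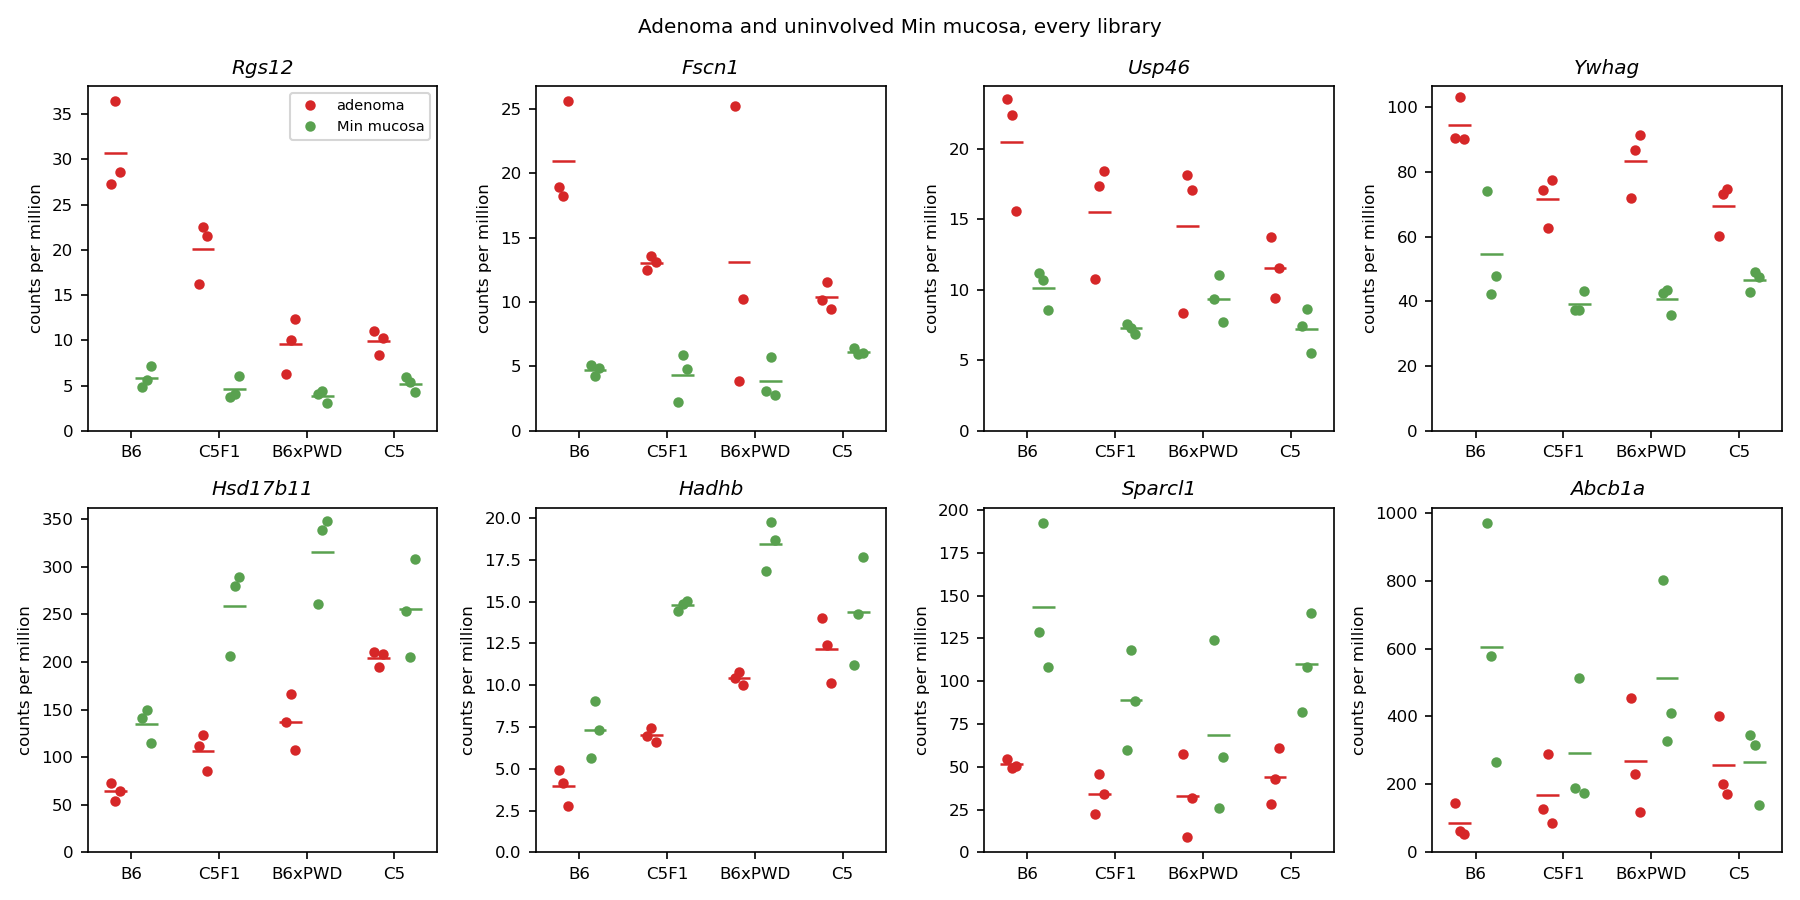
Each point is a library in CPM and each line the mean of 3, with adenoma left of Min mucosa in each background, backgrounds running from 0 PWD copies of chromosome 5 in B6 to 2 in C5. Rgs12 adenoma levels were 27.3 to 36.5 CPM in B6 and 8.42 to 11.1 CPM in C5, and Hsd17b11 and Hadhb were lower in adenoma than in Min mucosa in B6, C5F1 and B6xPWD without overlap.

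No difference between Min mucosa and wild-type mucosa passed the test in these genes. With the mean of 4 backgrounds, edgeR called 0 of 57, where 0.00732% of all genes were called, and DESeq2 called 0 of 57. At an unadjusted p under 0.05 there were 4 of the 57 and 1015 of all 13657 genes. The smallest adjusted p was that of Limk1, with 2.73, 3.72 and 5.86 CPM in 12 Min mucosa libraries and 0.989, 2.81 and 4.33 CPM in 12 wild-type libraries (0.46, adjusted p = 0.396).

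The organoid comparison of C5 with B6 shares no library with the tissue comparison, and fibroblast markers were at most 7.4 CPM in sum there. As the mean of AZA and control cultures, 5 of 55 genes were called in C5 against B6, 2 higher and 3 lower, where 0.396% of all genes were called, 0.202% higher and 0.194% lower, and 4.88% of chromosome 5 genes. At an unadjusted p under 0.05 there were 17 of the 55 and 964 of all 13395 genes, and DESeq2 called 7 of the listed genes. The count was 3 without B6 control culture 2, 8 without C5 control culture 3 and 9 without C5 AZA culture 3. The strain test counts the 4 libraries of a strain as independent. The AZA and control libraries of a strain carry the same 2 numbers, so they may come from 2 cultures. The SE and adjusted p would then be too small. A block on the number was not fitted for this comparison. All 5 genes had also been called in tissue in the same direction, which is 100% of the organoid calls and 18.5% of the tissue calls. Of 26 genes called in tissue and tested in organoids, 20 had a change of the same sign. Neither the shared calls nor the shared signs were counted over other genes, so neither is read as particular to this list. A direct test of the change in organoids minus that in tissue called 5 of the 58 genes (Aff1, Anapc5, Arpc1b, Letm1 and Limk1), where 3.23% of all genes were called.

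Arpc1b was far higher in C5 organoids. It had 544 and 558 CPM in C5 with AZA and 485 and 369 CPM in C5 control, against 96.5 and 101 CPM in B6 with AZA and 88.4 and 97.3 CPM in B6 control. Every C5 library was above every B6 library, and the change was 2.34 ± 0.13 (adjusted p = 8.81e-08), against 0.36 ± 0.13 in tissue. Cd38 had 29.2 and 21.6 CPM in C5 with AZA and 31.8 and 37.2 CPM in C5 control, against 64.2 and 72.6 CPM in B6 with AZA and 99.8 and 119 CPM in B6 control. Every C5 library was below every B6 library, with a change of -1.53 ± 0.17 (adjusted p = 0.000182).

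Coq2 and Hmgb1 were lower in all 4 C5 libraries as well. Coq2 had 12.6 and 15.7 CPM in C5 with AZA and 19.5 and 14.5 CPM in C5 control, against 34.9 and 43.3 CPM in B6 with AZA and 32.3 and 34.8 CPM in B6 control (-1.21 ± 0.22, adjusted p = 0.0222). Hmgb1 had 13 and 12.8 CPM in C5 with AZA and 17.0 and 13 CPM in C5 control, against 20.7 and 23.8 CPM in B6 with AZA and 47.7 and 53.6 CPM in B6 control (-1.26 ± 0.22, adjusted p = 0.0151). Both calls were lost without B6 control culture 2. Hsd17b11 had 401 and 369 CPM in C5 with AZA and 222 and 177 CPM in C5 control, against 299 and 272 CPM in B6 with AZA and 89.3 and 85.1 CPM in B6 control. Within each treatment C5 was the higher, and the change was 0.81 ± 0.12 (adjusted p = 0.00401). Enterocyte markers gave 0 calls among 10 in this comparison.

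**Figure D4:**
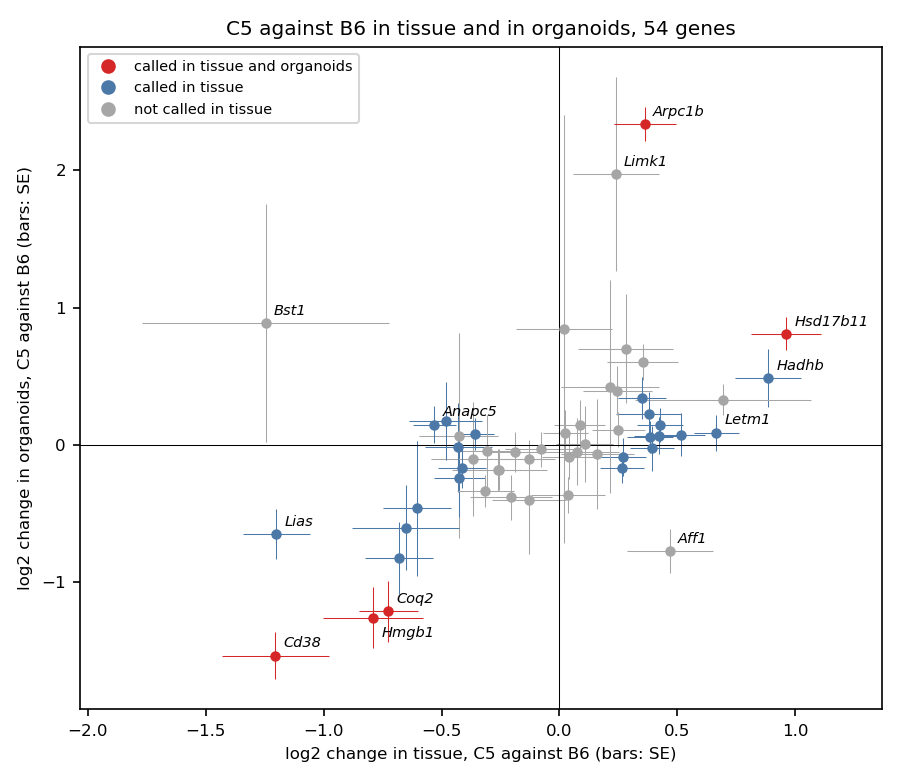
Each point is a gene tested in both, with the log2 change of C5 against B6 in tissue on the horizontal axis and in organoids on the vertical axis, bars giving standard errors. Over the 54 genes Pearson's r was 0.49 and Spearman's rho 0.53, as a description across genes that are not independent, and the highest points are Arpc1b, at 2.34 in organoids, and Limk1, at 1.97 there with a wide bar and not called.

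Treatment with AZA changed 22 of 55 genes as the mean of B6 and C5, 10 higher and 12 lower, where 28.5% of all genes were called, 15.0% higher and 13.5% lower. The lower ones included 5 of 9 genes of DNA replication, repair and the cell cycle (Anapc5, Brca2, Pds5b, Pole and Ung), with 0 higher, and 5 of 12 of transcription and chromatin. Markers of differentiated cells moved with the treatment. Enterocyte markers were higher in 10 of 10 cases, with sums of 25533 to 37887 CPM with AZA and 5185 to 11130 CPM in control. Paneth cell markers were higher in 6 of 6, with sums of 3699 to 7027 CPM with AZA and 917 to 1420 CPM in control, and enteroendocrine markers in 5 of 7, with 3665 to 5341 CPM with AZA and 1436 to 2087 CPM in control. Of 5 stem cell markers 2 were lower and 1 was higher, with sums of 383 to 834 CPM in C5 with AZA, against 519 to 973 CPM in C5 control, and 246 to 306 CPM in B6 with AZA, against 503 to 524 CPM in B6 control. Their part in the changes of the listed genes, falls and rises alike, was not tested.

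Brca2, a mediator of homologous recombination, had 27.3 and 33.5 CPM in C5 with AZA, against 63.0 and 81.4 CPM in C5 control, and 16.2 and 37.2 CPM in B6 with AZA, against 67.0 and 108 CPM in B6 control. Its groups did not overlap, and the change was -1.47 ± 0.25 (adjusted p = 0.000352). Pole had 21.0 and 11.6 CPM in C5 with AZA, against 40.2 and 46.0 CPM in C5 control, and 26.1 and 12.1 CPM in B6 with AZA, against 35.4 and 43.8 CPM in B6 control (-1.21 ± 0.27, adjusted p = 0.00334). Ung had 7.52 and 7.97 CPM in C5 with AZA, against 29.9 and 25 CPM in C5 control, and 11.1 and 8.27 CPM in B6 with AZA, against 13.5 and 20.9 CPM in B6 control (-1.30 ± 0.29, adjusted p = 0.00278). Neither gene showed overlap between AZA and control.

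Anapc5 had 132 and 127 CPM in C5 with AZA, against 202 and 268 CPM in C5 control, and 107 and 140 CPM in B6 with AZA, against 202 and 199 CPM in B6 control (-0.78 ± 0.13, adjusted p = 0.00048). Baz1b had 225 and 226 CPM in C5 with AZA, against 325 and 433 CPM in C5 control, and 205 and 209 CPM in B6 with AZA, against 365 and 309 CPM in B6 control (-0.73 ± 0.12, adjusted p = 0.00045). Slit2 had 9.83 and 10.02 CPM in C5 with AZA, against 14.5 and 19.0 CPM in C5 control, and 4.96 and 14 CPM in B6 with AZA, against 39.2 and 42.5 CPM in B6 control (-1.41 ± 0.31, adjusted p = 0.00277). Within C5 and within B6 all 3 genes were lower in both AZA cultures. Hmgb1, whose values stand above, changed by -0.69 ± 0.22 (adjusted p = 0.0273), a call lost under 5 of 14 alternatives.

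Genes of metabolism, transport and the cytoskeleton were among those that rose with AZA. Hsd17b11 changed by 1.33 ± 0.12 (adjusted p = 1.31e-06). Abcb1a had 1653 and 1568 CPM in C5 with AZA, against 780 and 1001 CPM in C5 control, and 1381 and 1404 CPM in B6 with AZA, against 687 and 615 CPM in B6 control (0.98 ± 0.11, adjusted p = 1.36e-05). Ugdh had 516 and 655 CPM in C5 with AZA, against 277 and 375 CPM in C5 control, and 415 and 348 CPM in B6 with AZA, against 211 and 222 CPM in B6 control (0.83 ± 0.13, adjusted p = 0.000265). In both strains the AZA cultures were the higher for each of these genes. Actb had 1645 and 1225 CPM in C5 with AZA, against 859 and 815 CPM in C5 control, and 1879 and 1636 CPM in B6 with AZA, against 1050 and 1120 CPM in B6 control (0.74 ± 0.12, adjusted p = 0.000244). Bst1 had 162 and 2.51 CPM in C5 with AZA, against 11.4 and 0.225 CPM in C5 control, and 36.7 and 48.4 CPM in B6 with AZA, against 1.87 and 4.06 CPM in B6 control (3.78 ± 0.90, adjusted p = 0.00458), with the C5 cultures far apart and the call lost without C5 AZA culture 3.

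The AZA effect was not shown to differ between C5 and B6 for any of these genes. The edgeR interaction called 0 of 55 genes and 0.0% of all genes, and DESeq2 called 0 of the 55. At an unadjusted p under 0.05 there were 5 of the 55 and 609 of all 13395 genes.

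**Figure D5:**
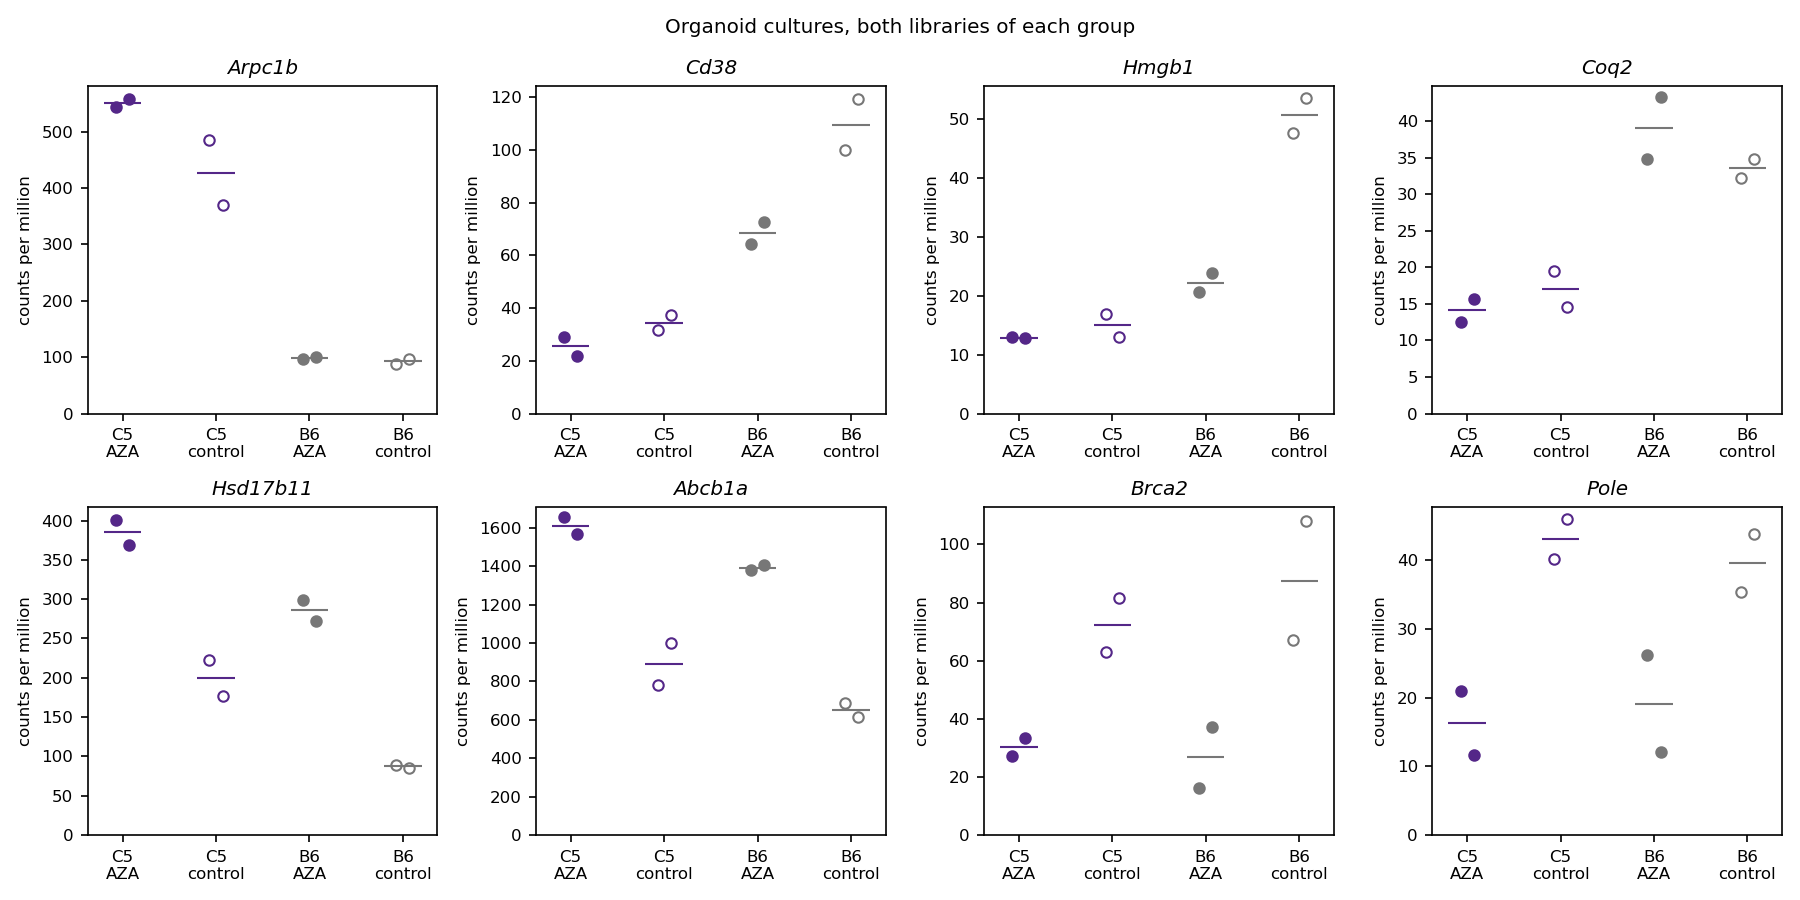
Each point is an organoid library in CPM and each line the mean of both libraries, ordered as C5 with AZA, C5 control, B6 with AZA and B6 control. Arpc1b separated C5, at 369 to 558 CPM, from B6, at 88.4 to 101 CPM, whatever the treatment, while Abcb1a was higher and Brca2 and Pole were lower with AZA in both strains.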

How the data were processed

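RNA of 47 libraries (39 of intestinal tissue and 8 of organoids) was depleted of ribosomal RNA and sequenced as single reads on a Genome Analyser IIx, per the labels' protocols. The authors deposited raw counts per gene symbol for all libraries; alignment with BWA to mm10 and counting with HTSeq are named in the submitters' processing notes, and versions, gene annotation and strand setting were not given in the sources used here. HTSeq summary categories, 40.7 to 53.9% of a tissue library and 46.4 to 63.5% of an organoid library, name no gene and were left out. Symbols were matched to RefSeq of GRCm38.p6, 22550 by current symbol and 1352 by synonym, and 160 did not match.

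Separate fits were made for tissue and for organoids (edgeR 4.0.16, R 4.3.3): filterByExpr by group (minimum count 10, minimum total 15), TMM scaling, 1 mean per group and the quasi-likelihood F-test, with Benjamini-Hochberg adjustment over all genes and a call at 0.05. All groups of a kind shared the estimate of spread. CPM values are TMM-scaled, log2 changes carry a prior count of 2, and the SE is the change fitted without a prior count over the square root of F. There were 20 comparisons and 1 added after seeing the data, of C5 against B6 in organoids minus that in tissue, fitted on all libraries together. Cell type markers served only to check the labels and to stand beside results.

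Called genes with at least 5 CPM on the higher side were given in full, up to the 12 largest changes in each of 5 main comparisons and up to 5 in the others, along with genes called in C5 against B6 in both tissue and organoids. Where groups of libraries are said not to overlap, the share of all genes for which this held was not counted. The rule that lists the 58 genes used no measured value of these data. Earlier results of the data were known when the list, the role groups and the marker lists were set, so no p is given over the list alone.

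Alternatives were RLE size factors, no filter on low counts, Rn45s left out, TMM from genes off chromosome 5, DESeq2 1.42.0, only the groups compared, the replicate number as a block, each library left out, and, added after seeing the data, the Gata4 level as a covariate and leaving out the 6 libraries with fewer than 2000000 counts besides Rn45s. Same-numbered adenoma and Min mucosa libraries correlated in their deviations from group means in 12 of 12 pairs (r from 0.107 to 0.455, median 0.236). The block was therefore taken as pairing there. Between other numbers the median was -0.158. Deviations within a group cancel out, so positive values for equal numbers force negative ones there, and that median is no separate evidence. The labels number the replicates and do not say what a number stands for. No 2 libraries of a group were copies: chi-square over degrees of freedom was 7.62 or more in all 43 pairs.

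The share of changed genes that the fit recovers was measured on simulated data. Simulated libraries were drawn independently, with 1 mean over all groups for each unchanged gene. The correlation of same-numbered adenoma and Min mucosa libraries was not simulated, and the number of wrong calls is not given here. Of 67 genes changed by 2-fold, 88.1% were called for C5 against B6 in tissue (13364 genes), 92.5% for adenoma against Min mucosa (13344 genes), 41.8% for PWD against B6 (13363 genes), 61.2% for C5 against B6 in organoids (12756 genes) and 50.7% for AZA against control (12746 genes). Of 67 genes changed by 1.5-fold, 47.8% were called for C5 against B6 in tissue and 70.1% for adenoma against Min mucosa. The shares at 1.5-fold were 11.9% for PWD against B6, 22.4% for C5 against B6 in organoids and 8.96% for AZA against control. Only genes above a floor of expected counts were changed, so the shares do not cover genes of low level. The precision of low levels is set by depth: 846520 to 12799597 counts besides Rn45s in a tissue library.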

Additional observations from a re-analysis of the deposited data

Results flagged for a closer look

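The change of C5 against B6 differed between organoids and tissue for 5 of the 58 genes in a direct test of the difference (edgeR, all libraries in a single fit), where 3.23% of all genes were called. There were 14 of the 58 and 2994 of all 15202 genes at an unadjusted p under 0.05, and DESeq2 called 6 of the 58. The count was 3 without B6 control culture 1, B6 AZA culture 2, C5 AZA culture 3 or C5 control culture 4. The test was added after the data had been seen, and it was fitted without a block on the number.

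Arpc1b had the largest difference, 1.99 ± 0.23 on the log2 scale (adjusted p = 1.16e-06): its change in C5 was 2.34 in organoids and 0.36 in tissue. Every C5 organoid library was above every B6 organoid library, and the call stood under every alternative. The neighbouring paralogue Arpc1a was not called in this test.

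Aff1, a subunit of transcription elongation complexes, differed by -1.23 ± 0.30 (adjusted p = 0.0196), with a change of -0.77 in organoids and 0.47 in tissue, neither of which was called by itself. It had 52.3 and 73.6 CPM in C5 with AZA and 32.4 and 34.0 CPM in C5 control, against 86.1 and 94.4 CPM in B6 with AZA and 61.8 and 73.6 CPM in B6 control. The call stood under every alternative.

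Limk1 differed by 1.65 ± 0.47 (adjusted p = 0.0189). It had 12.1 and 2.73 CPM in C5 with AZA and 7.06 and 10.02 CPM in C5 control, against 3.93 and 1.03 CPM in B6 with AZA and 0.432 and 2.18 CPM in B6 control, so the cultures overlapped and the call was lost under 4 of 31 alternatives.

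Anapc5 differed by 0.70 ± 0.17 (adjusted p = 0.0149), with a change of 0.15 in organoids and -0.53 in tissue, and lost the call under 3 of 31 alternatives. Letm1 differed by -0.56 ± 0.17 (adjusted p = 0.0498), with 0.09 in organoids and 0.67 in tissue, and lost the call under 21 of 31 alternatives.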

How the results depend on the processing

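No called gene changed direction under any alternative in any comparison. Counts of called genes under these settings stayed within 1.5 times of the reported count, except as follows; the cause was not tested unless fewer libraries entered the fit. Fitting only the groups compared gave 8 for PWD against B6 (18 reported), 3 for PWD against C5 (9), 0 for C5 against B6 in wild-type mucosa (7) and in Min mucosa (3), 2 for adenoma in B6xPWD (11), 1 for adenoma in C5 (0) and 2 for the adenoma effect in C5 minus B6 (0). DESeq2 gave 4 for the midpoint (0) and 9 for C5 against B6 in Min mucosa (3). Without the filter on low counts, C5 against B6 gave 3 in wild-type mucosa (7) and 8 in organoids (5). The Gata4 covariate gave 21 for B6xPWD against C5F1 (13). Without the 6 shallow libraries the counts were 1 for the midpoint, 8 for B6xPWD against C5F1, 9 for adenoma in C5F1 (14) and 1 for adenoma in C5.

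With the replicate block, adenoma against Min mucosa, where the numbers pair the libraries, gave 22 in C5F1 (14), 18 in B6xPWD (11), 3 in C5 (0) and 2 for C5 minus B6 (0), and 36 for the mean (30) and 25 in B6 (17). In the other comparisons pairing by number was not shown, beyond the adenoma and Min mucosa libraries that they hold. With wild-type mucosa, 9 of 24 pairs correlated above 0.1. Of the pairs of AZA and control cultures 0 of 4 did. With 2 libraries a group, the deviations of a group mirror each other, so that check cannot settle whether cultures are paired. The labels give an AZA culture and a control culture of a strain the same number. The comparison of C5 with B6 organoids counts them as independent. In these other comparisons the block gave 1 for the midpoint (0) and 26 for AZA (22). For tissue this block was the number across all backgrounds. It does not model the correlation of adenoma and Min mucosa libraries within a background, which also enters the strain means over tissues.

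Leaving out each library in turn gave 21 to 28 for C5 against B6, 12 to 17 for C5F1, 19 to 26 for B6xPWD, 10 to 18 for PWD against B6, 0 to 3 for the midpoint, 2 to 10 for PWD against C5 and 8 to 17 for B6xPWD against C5F1. For C5 against B6 it gave 1 to 10 in wild-type mucosa, 0 to 7 in Min mucosa and 13 to 14 in adenoma. For adenoma against Min mucosa it gave 26 to 32 for the mean, 10 to 17 in B6, 7 to 12 in C5F1, 5 to 11 in B6xPWD and 0 in C5. In organoids it gave 3 to 9 for C5 against B6, 15 to 22 for AZA and 3 to 6 for organoids minus tissue. With 1 library left in an organoid group, that library is assumed to vary like the others. Of the calls reported, 18 of 27 for C5 against B6, 24 of 30 for adenoma, 3 of 5 in organoids and 12 of 22 for AZA stood under every alternative. Genes under 10 CPM, such as Hmgb1, Limk1 and Pms2, are limited by depth in the shallow libraries.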
